A study of Mus musculus with 2 samples.

Results

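The genes described here are 9 mouse genes of the hemidesmosome and of the integrins of basal keratinocytes, taken as a named list from an array comparison of newborn *Pnpla1*-/- and *Pnpla1*+/+ skin. They are the integrin subunits *Itga3*, *Itga6*, *Itgb1* and *Itgb4*, the tetraspanin *Cd151*, the plakins *Dst* and *Plec*, and the laminin chains *Lama3* and *Lamb3*. The members were found by gene name in the scanner files, by a rule that uses no measured value. They had 15 of the 39429 probes on the array, and are 9 of the 30133 genes that those probes represent.

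The basal layer of the epidermis is held to the basement membrane by hemidesmosomes, in which the integrin made of the *Itga6* and *Itgb4* products binds laminin-332 outside the cell, and plectin and the epithelial form of dystonin tie the same receptor to keratin filaments inside it. A second laminin receptor, made of the *Itga3* and *Itgb1* products, lies outside hemidesmosomes and connects to actin through focal adhesions. Loss of laminin-332 or of the hemidesmosome's own proteins is known from epidermolysis bullosa, in which skin blisters at or near this junction. *Pnpla1* encodes a lipase-family protein of the uppermost living keratinocytes that takes part in making acylceramides, the lipids of the skin's permeability barrier.

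The comparison asked how gene expression in newborn skin differs when *Pnpla1* is lost throughout the body. Both groups were C57BL/6N mice at postnatal day 0. The *Pnpla1*-/- pups came from crosses between heterozygotes, in a line that the paper describes as carrying a knockout-first allele, *Pnpla1*tm1a(KOMP)Wtsi. The paper also reports that flippase excised the IRES-LacZ and Neo cassettes. It does not say whether the allele of the *Pnpla1*-/- pups had lost them. The *Pnpla1*+/+ pups were wild-type littermates in the study's breeding scheme, and are called wild-type below. Equal amounts of skin RNA from 6 pups of a genotype were pooled and hybridized, in 1 colour (Cy3), to 1 Agilent oligonucleotide array, so that there was 1 array per genotype. The design has no replicates, so that genotypes could not be tested against each other and a difference describes 1 pair of pools.

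Each array held 43020 spots other than controls, of which 71.7% on the wild-type array and 73.3% on the other were well above background. Intensities are given as deposited, linear and background-subtracted. For the differences, each intensity was divided by the 75th percentile of its array, 2108 in wild-type and 1734 in *Pnpla1*-/- skin, and log2 was taken. A difference is *Pnpla1*-/- minus *Pnpla1*+/+ on this scale, so that a negative value stands for a lower scaled signal in *Pnpla1*-/- skin. A gene was represented by its brightest probe. The other probes of the 9 genes are given beside it, and those of further genes where they differ in sign or in their side of the 2-fold level. *Pnpla1* itself had an intensity of 579 in wild-type and 114 in *Pnpla1*-/- skin, a difference of -2.07, from a probe on chromosome 17 of mm9 between 29026908 and 29026967. The targeted gene was thus lower in the library labelled as knockout, though its probe was still well above background there. Whether the probe lies in the altered stretch of the gene is not given in the sources used here.

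Of the 9 genes, the epithelial form of *Dst* and the laminin chains *Lama3* and *Lamb3* were lower in *Pnpla1*-/- skin, by 2.17-fold, 1.63-fold and 1.43-fold. The integrin subunits, *Cd151* and *Plec* lay near 0, with differences between -0.12 and 0.18. In all, 3 genes had a difference above 0 and 6 below it, and the median over the 9 genes was -0.12, against 0.00264 over the 22383 genes with a difference. At the 2-fold level no member was higher and 1, *Dst*, was lower, where 6.69% of all genes were higher by 2-fold or more and 3.04% lower by as much. At 1.5-fold no member was higher and 2 were lower, *Dst* and *Lama3*, where 13.8% of all genes were higher and 9.34% lower. The median was -0.40 without scaling and -0.55 with spike-in centring. The count at least 2-fold lower was 2 with spike-in centring, where 2178 of 22179 genes were lower by as much. That count was 0 with a mean over the probes of each gene, where 658 of 22383 genes were lower by as much. In RNA from whole skin, fewer cells of a type and less RNA per cell cannot be told apart.

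**Figure D1:**
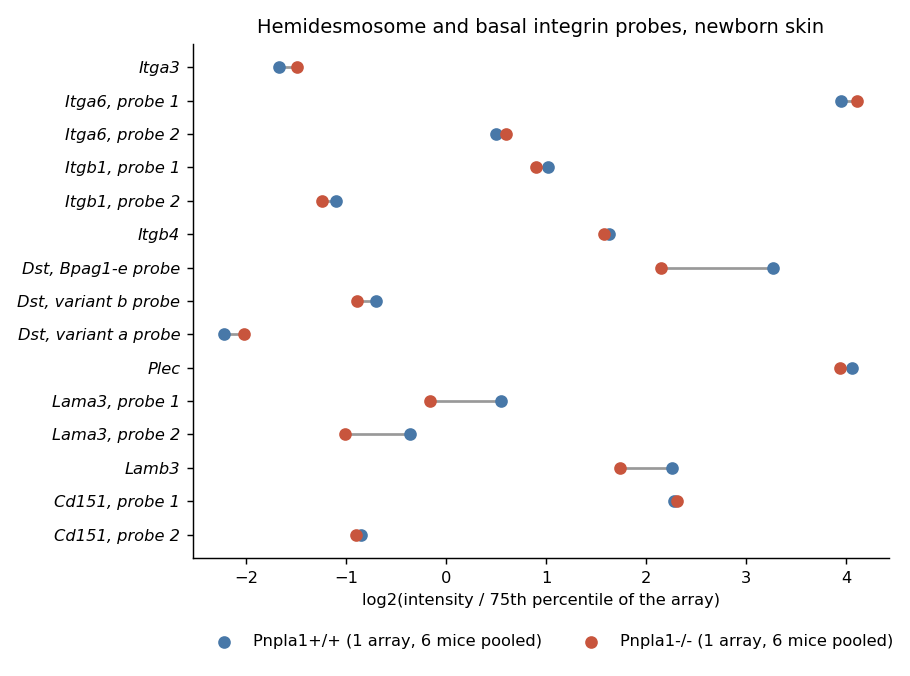
Scaled signal of the 15 probes of the 9 genes, as log2 of the intensity over the array's 75th percentile, in *Pnpla1*+/+ (blue) and *Pnpla1*-/- skin (red), with 1 array of 6 pooled mice each. The points of a probe lie close together except for the Bpag1-e probe of *Dst*, both probes of *Lama3* and the probe of *Lamb3*, and positions of different probes are not comparable.

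The error of a single probe was taken in 2 ways, neither of which holds the variation between mice. The scanner software gave each spot its own error, and the SD of a difference that follows from it was between 0.204 and 0.206 for the 15 probes. Among 305 other probes with at least 8 repeated spots, all well above background, the median SD of a difference was 0.08 and the 90th percentile was 0.17. Each of the 15 probes had 1 spot per array, and all were well above background on both arrays, with none saturated and none carrying an outlier flag. By the software's SD, 6 of the 9 genes lay within 1 SD of 0 and 3 beyond it, the latter being *Dst*, *Lama3* and *Lamb3*. The 25th and 75th percentiles over all genes were -0.26 and 0.32, both farther from 0 than the SD of the member probes. Differences beyond an SD of this size were thus common among all genes.

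Among the laminin receptors of the basal cell, *Itga6* and *Itgb4* encode the pair of the hemidesmosome. *Itga6* had an intensity of 32635 in wild-type and 29976 in *Pnpla1*-/- skin with its brighter probe, on chromosome 2 from 71694756 to 71694815, a difference of 0.16. Its other probe, from 71690633 to 71690692, read 2979 and 2638, a difference of 0.11, so that the probes were 0.053 apart. *Itgb4*, measured by a probe on chromosome 11 from 115869666 to 115869725, had 6520 and 5186, a difference of -0.05. Both subunits were within the software's SD of 0, on opposite sides of it.

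*Itga3* and *Itgb1* encode the receptor outside the hemidesmosome, and the *Itgb1* product also pairs with most other alpha subunits of skin. *Itga3* had an intensity of 661 in wild-type and 618 in *Pnpla1*-/- skin, from a probe on chromosome 11 between 94906334 and 94906393, and a difference of 0.18, the highest of the 9 genes. Of all genes, 66.3% had a lower difference. *Itgb1* had probes on chromosome 8 that read 4283 and 3248 (131250081 to 131255976) and 987 and 734 (131246349 to 131246408), with differences of -0.12 and -0.14. The former interval is longer than the probe, as the scanner files give it. Neither gene differed by more than the software's SD.

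*Cd151*, a tetraspanin that binds both receptors and organizes them in the membrane, also had 2 probes. The brighter, on chromosome 7 from 148657237 to 148657297, had intensities of 10226 in wild-type and 8614 in *Pnpla1*-/- skin and a difference of 0.03, and the other, from 148656555 to 148656614, had 1171 and 930 and a difference of -0.05. The median over the 4 integrin subunits and *Cd151*, 5 genes, was 0.03. The signs of these small values depend on the scaling: without scaling or with centring on spike-in RNA, *Itga3* and *Itga6* were below 0, and *Cd151* was below 0 in 5 of 12 alternative settings.

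**Figure D2:**
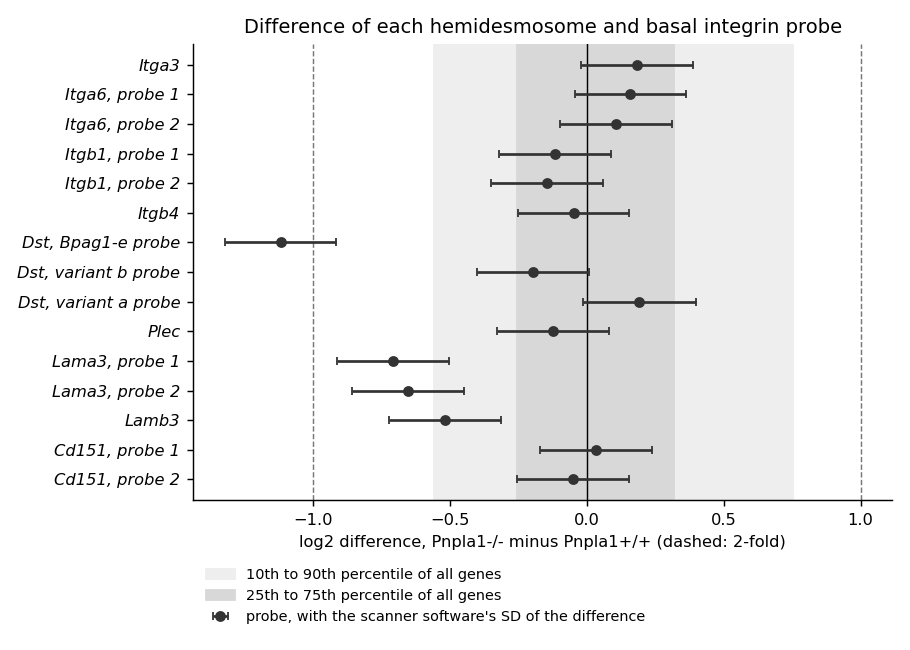
Difference of each of the 15 probes (points) with the SD from the scanner software's error (bars), against the 25th to 75th percentile (-0.26 to 0.32) and the 10th to 90th percentile (-0.56 to 0.75) of all genes (dark and light grey). The probes of the integrin subunits, *Cd151* and *Plec* lie within the dark band, and the Bpag1-e probe of *Dst* and both probes of *Lama3* lie below the light one.

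Inside the cell, plectin and dystonin are the plakins that carry keratin filaments to the receptor. *Plec* had an intensity of 35189 in wild-type and 26587 in *Pnpla1*-/- skin, from a probe on chromosome 15 between 76001454 and 76001513, and a difference of -0.12, within the software's SD. *Dst* encodes, besides the epithelial form (Bpag1-e, also called BP230), long forms of muscle and nerve that bind actin or microtubules. Its probes are shown because they read different forms of 1 gene and gave different results. All lie on chromosome 1 of mm9, on the strand listed as plus, and the sequences are those in the deposited scanner files, 5′ to 3′. The Bpag1-e probe lies at chr1:34239785-34239844 and is listed for the epithelial transcript. The probe listed for transcript variant a is given over 34209337 to 34211389, an interval longer than its 60 bases, and that for variant b over 34364644 to 34364703. The files list the accessions of both variants a and b for each of these latter probes, so that they do not separate a from b. For variant b the first 30 of 60 bases are shown. The longest run of bases that any of the 3 probes shares with another is 6.
*Dst*, Bpag1-e probe: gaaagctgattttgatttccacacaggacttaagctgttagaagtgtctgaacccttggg
*Dst*, variant a probe: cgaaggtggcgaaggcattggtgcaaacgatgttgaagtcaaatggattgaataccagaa
*Dst*, variant b probe, first 30 bases: aggaagaaagaacttaacatgaactgatgt

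The Bpag1-e probe had an intensity of 20286 in wild-type and 7684 in *Pnpla1*-/- skin, a difference of -1.12. It was the lowest of the 15 member probes, and 2.45% of all genes had a lower difference. The variant b probe read 1303 and 936, a difference of -0.20, and the variant a probe 455 and 427, a difference of 0.19. Both were within the software's SD of 0. The epithelial form was thus lower in *Pnpla1*-/- skin while the probes of the long forms were not separated from 0. The probes of *Dst* spanned 1.31 on the log2 scale. Of 5111 genes with more than 1 measured probe, 99 (1.94%) spanned as much or more, and the median span was 0.18. A mean over the 3 *Dst* probes, which mixes the forms, was -0.37.

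Outside the cell, the *Lama3* and *Lamb3* products are chains of laminin-332, the ligand of both receptors and the anchoring thread of the basement membrane. *Lamb3*, on chromosome 1 where its probe spans 195170009 to 195170068, read 10074 in wild-type and 5791 in *Pnpla1*-/- skin, a difference of -0.52. The difference was lower for 11.2% of all genes.

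*Lama3* was measured by 2 probes on chromosome 18, from 12741458 to 12741517 and from 12741067 to 12741126. The brighter read 3091 in wild-type and 1556 in *Pnpla1*-/- skin, a difference of -0.71, and the other 1642 and 859, a difference of -0.65. The difference of *Lama3* was lower for 6.49% of all genes. Both probes were lower in *Pnpla1*-/- skin and lay 0.056 apart, closer than the median span of 0.18 over the genes with several probes. Over the 3 probes of *Lama3* and *Lamb3*, no difference was above -0.52.

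The 8 laminin chains of the basement membrane list described below were more spread. Their median was -0.29, and 6 of them were below 0, with 3 at or below *Lamb3*. These 3 were *Lamc3* at -1.29, *Lama2*, the chain of muscle and nerve basement membranes, at -0.59, and *Lama5*, the alpha chain of the other main laminin under epidermis, at -0.53. The highest was *Lama1*, a chain of embryonic basement membranes, with an intensity of 210 in wild-type and 637 in *Pnpla1*-/- skin and a difference of 1.88. *Lamc3*, *Lama2* and *Lama5* are named here because of their values.

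The partners that join the members to the rest of the junction lay on both sides of 0. *Col17a1*, the transmembrane collagen of the hemidesmosome that binds the *Itgb4* and *Dst* products, had intensities of 8301 in wild-type and 5581 in *Pnpla1*-/- skin and a difference of -0.29. *Col7a1*, the collagen of the anchoring fibrils that hold laminin-332 to the dermis, had 51667 and 33368 and a difference of -0.35. *Erbin*, which binds the *Itgb4* and Bpag1-e products, had 7902 and 4720 and a difference of -0.46. These 3 genes were lower in *Pnpla1*-/- skin by less than 2-fold.

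Of the keratins of basal cells, the 2 counted among the partners, *Krt5* and *Krt14*, were not lower in the main setting. *Krt15*, in the list of basal markers below, was 3.18-fold lower, at -1.67. *Krt5* had an intensity of 220487 in wild-type and 210699 in *Pnpla1*-/- skin, a difference of 0.22, with a second probe at 0.38, but it was below 0 without scaling, with quantile normalization and with spike-in centring. *Krt14* had 53789 and 112502, a difference of 1.35, or 2.54-fold higher, and was above 0 under all 12 alternative settings. The median over the 5 partners was -0.29, with 1 of 5, *Krt14*, higher by 2-fold or more and 0 lower by as much. With spike-in centring *Krt14* was at 0.92, under 2-fold.

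**Figure D3:**
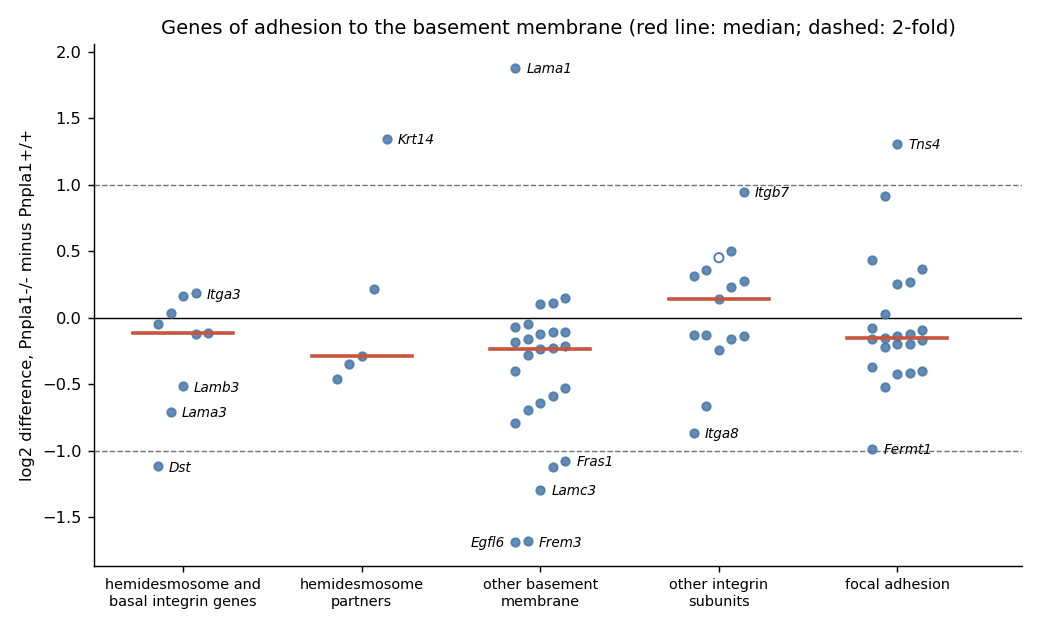
Difference of each gene in the 9 member genes, their 5 partners and 3 further lists of adhesion genes, with the median of each list (red line), 2-fold limits (dashed) and a bound as an open point. The medians run from -0.29 for the partners to 0.14 for the other integrin subunits, and the basement membrane list has the widest spread, from *Egfl6* at -1.69 to *Lama1* at 1.88.

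Of 26 other genes of the basement membrane, all measured, 22 were below 0, with a median of -0.23, 5 lower by 2-fold or more and 1 higher by as much. The count of 5 was 3 with normexp background correction and 9 with spike-in centring. The lowest were *Egfl6*, which encodes a basement membrane protein of the hair follicle and had 864 in wild-type and 221 in *Pnpla1*-/- skin, and *Frem3*, with 102 and 26.1, a difference of -1.68, and -0.96 with its other probe or -0.69 with normexp background correction. *Frem3* belongs to a family with *Fras1*, *Frem1* and *Frem2*, whose products form a complex under the embryonic epidermis and are lost in Fraser syndrome and its mouse models. *Fras1* was at -1.08, *Frem1* at -0.79 and *Frem2* at -1.12, and the median of the 4 genes was -1.10. The family was picked out after its values were seen. Besides *Lama1*, the highest of the list was *Lama4*, at 0.15, which was below 0 in 2 of the 12 settings.

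The 15 other integrin subunits had a median of 0.14, which turned negative without scaling and with spike-in centring, and none was 2-fold higher or lower in the main setting. Cyclic loess put 1 of them 2-fold higher, and 1 was 2-fold lower without scaling and 2 with spike-in centring. *Itgb7*, a subunit of lymphocytes, was highest at 0.94, followed by *Itga7*, the laminin receptor subunit of muscle, at 0.50. *Itga8* at -0.87 and *Itga9* at -0.66 were lowest. *Itga8* pairs with *Itgb1* and binds the *Egfl6* product and nephronectin. *Itgb8* reached well above background on the *Pnpla1*-/- array alone and was at least 1.37-fold higher there, or 1.01-fold with spike-in centring. Its software SD was 0.50 beside its log2 bound of 0.45. Among 23 genes of focal adhesions, to which the *Itga3* and *Itgb1* receptor connects, the median was -0.16, 16 were below 0, 1 was at least 2-fold higher and none lower. In 6 of 12 settings 1 of them was 2-fold lower, and with normexp background correction or spike-in centring none was 2-fold higher. *Tns4* was at 1.31, and 0.34 with its other probe, and *Fermt3*, the kindlin of blood cells, at 0.91, while *Fermt1*, the kindlin of keratinocytes that activates beta1 integrins, was at -0.99 and *Ptk2*, focal adhesion kinase, at -0.52.

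The labelled tissue was skin, whereas the deposited design text also speaks of epidermis. Markers of basal and suprabasal keratinocytes, fibroblasts, skeletal muscle, endothelium and Schwann cells were above background, so that the RNA held more than epidermis. Among leukocyte markers, *Cd207*, the marker of Langerhans cells, did not reach well above background on any array. For each list below, the summed level is the sum of its genes' intensities in units of the array's 75th percentile. Probes differ in how strongly they read a transcript, so that the sum mostly follows its brightest probes, which are named to show what carries it and not as the most abundant RNA.

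Basal keratinocytes are the cells that make the 9 genes' products in epidermis. The 7 genes listed as markers of these cells include *Krt5*, *Krt14* and *Sfn*, the last at 1.04. Their median was 0.22 (negative without scaling and with spike-in centring), with 5 above and 2 below 0. Their summed level was 180 in wild-type and 213 in *Pnpla1*-/- skin, with *Krt5* brightest. They were divided: *Krt14* at 1.35 and *Sox15* at 1.19 were highest, and *Krt15* at -1.67 and *Bnc1* at -0.31 were lowest. *Trp63*, the transcription factor of the basal layer that is known to act on integrin and laminin genes, had intensities of 15264 and 13878 and a difference of 0.14 with its brightest probe. Its other probes were at -0.15, -0.23 and -0.26, and the gene was below 0 in 3 of 12 settings. The basal markers thus lay on both sides of 0, as did the 9 genes, and their part in the members' differences was not tested.

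Proliferation and hair follicle markers were lower together. All 10 proliferation markers were below 0, from *Ccna2* at -0.89 and *Mcm5* at -0.76 up to *Birc5* at -0.55 and *Mcm2* at -0.47, with a median of -0.64, none 2-fold lower (2 without scaling and 8 with spike-in centring), and a summed level of 57.5 in wild-type and 36.9 in *Pnpla1*-/- skin, *Mki67* being brightest. Of 10 hair follicle markers, 9 were below 0 and 4 at least 2-fold lower (2 with normexp background correction and 8 with spike-in centring), with a median of -0.88 and a summed level of 79.6 and 42.6, *Krt71* being brightest. *Lhx2* at -1.28 and *Krt27* at -1.10 were lowest, and *Foxn1* at 0.52 and *Sox9* at -0.34 highest. Follicle cells also make hemidesmosome and basement membrane proteins. These values stand beside those of *Dst*, *Lama3*, *Lamb3* and the Fraser family, and their part in those results was not tested.

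Keratins of wounded epidermis were far higher in *Pnpla1*-/- skin, with *Krt6b* at 7.20, *Krt6a* at 6.96, *Krt16* at 4.13 and *Krt17* at 0.65, all 4 above 0, a median of 5.54 and a summed level of 45.5 and 411, with *Krt17* brightest in wild-type and *Krt16* in *Pnpla1*-/- skin. The 8 suprabasal markers had a median of 0.15 (negative in 3 of 12 settings), 7 above 0, and a summed level of 362 and 405, with *Krt10* brightest. *Dsc1* at 1.20 and *Dsg1a* at 0.35 were highest, *Ivl* at 0.02 was the lowest measured on both arrays, followed by *Sbsn* at 0.04, and *Krt77* was well above background in *Pnpla1*+/+ skin only, with a signal at least 4.58-fold lower in *Pnpla1*-/- skin, or 1.92-fold with normexp background correction. The part of these lists in the members' differences was not tested.

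**Figure D4:**
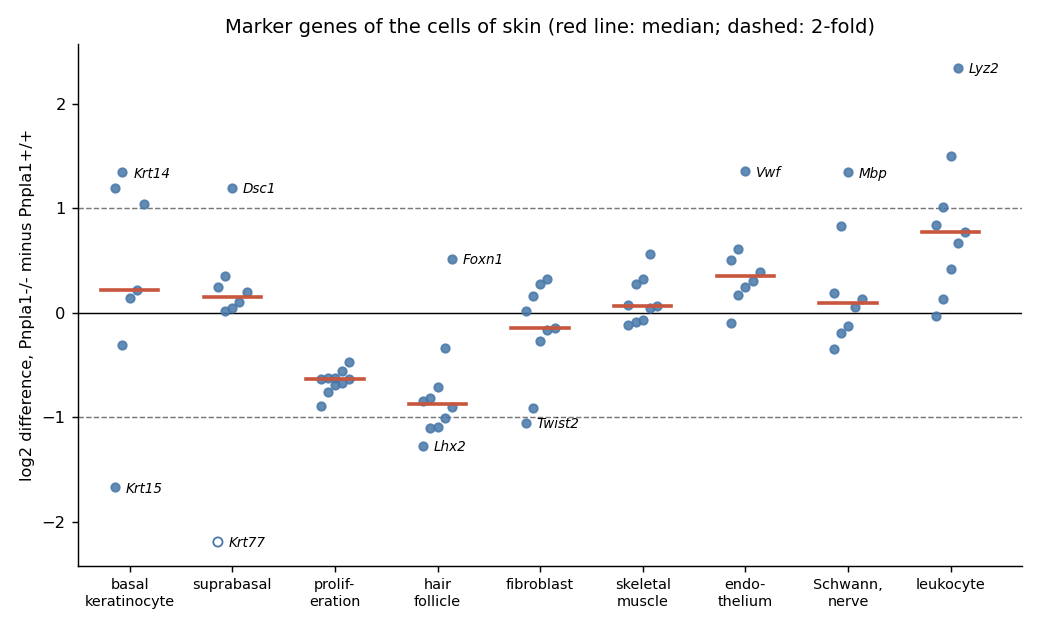
Difference of each marker gene of 9 cell types or states of skin, with the median of each list (red line), 2-fold limits (dashed) and a bound as an open point. Proliferation markers (10 of 10) and hair follicle markers (9 of 10) lie below 0, while basal keratinocyte markers spread from *Krt15* at -1.67 to *Krt14* at 1.35.

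Markers of the dermis and of deeper tissue lay on both sides of 0. The 9 fibroblast markers had a median of -0.15 and a summed level of 353 in wild-type and 330 in *Pnpla1*-/- skin, with *Col1a2* brightest, *Pdgfra* at 0.32 and *Pdgfrb* at 0.27 highest, and *Twist2* at -1.05 and *Dpt* at -0.91 lowest. The 9 skeletal muscle markers had a median of 0.07 (negative in 5 of 12 settings) and a summed level of 402 and 435, with *Myl1* brightest in wild-type and *Tnnc2* in *Pnpla1*-/- skin, *Myh3* at 0.57 and *Actn2* at 0.32 (1.18 with its other probe) highest, and *Ckm* at -0.12 and *Myl1* at -0.08 lowest. The 8 markers of Schwann cells and nerve had a median of 0.10 (negative in 3 of 12 settings) and a summed level of 3.83 and 5.67, with *Mbp* brightest and highest at 1.34 (1.39 and 0.30 with its other probes), then *Erbb3* at 0.83, and *Ngfr* at -0.35 and *Sox10* at -0.19 lowest. Muscle and nerve are the tissues of the long *Dst* forms, whose probes were within the software's SD of 0.

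The 8 endothelium markers had a median of 0.35 (negative with spike-in centring) and a summed level of 9.56 in wild-type and 13.2 in *Pnpla1*-/- skin, with *Cldn5* brightest in the former and *Vwf* in the latter, *Vwf* at 1.35 and *Emcn* at 0.61 highest, and *Cldn5* at -0.10 and *Pecam1* at 0.17 lowest. Of 10 leukocyte markers, 9 were measured, with a median of 0.78 and 8 above 0. Their summed level was 19.3 in wild-type and 28.8 in *Pnpla1*-/- skin, with *Csf1r* brightest. *Lyz2* at 2.35 and *Ptprc* at 1.51 were highest, and *Itgam* at -0.03 and *Cd3e* at 0.13 lowest. The value of *Itgam* is that of its brightest probe, and its other probes were at 1.14 and 2.84. The part of these cells in the differences of *Itgb1*, *Itga6* and *Cd151*, which they also make, was not tested.

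The values of the 9 genes also depend on how the arrays are brought to 1 scale. *Dst*, *Lama3*, *Lamb3*, *Itgb1*, *Itgb4* and *Plec* had the same sign in 12 of 12 alternative settings. Many of these settings could not turn a negative value. The filters on dim probes and the kept flagged spots left all 9 genes unchanged, and the deposited ratios nearly so. Scaling by the median, by nothing, by the percentile among probes detected on both arrays or by the spike-in lowered all 9. With quantile normalization *Itgb4* was at 0.01 relative to the median of all genes. *Dst* ranged from -1.55 with spike-in centring to -0.37 with the mean over its probes, *Lama3* from -1.14 to -0.63 and *Lamb3* from -0.95 to -0.49. Spike-in centring moved the median of all genes by -0.44 and leaving out the scaling by -0.28. Relative to the median of all genes, *Itga3* was at 0.18 in the main setting and 0.19 with spike-in centring, and *Lama3* at -0.71 in both. These scalings shift all genes of an array by 1 amount, so that the spacing between members is the same by construction and their common level moves. Genes and lists given above with a small positive value can likewise turn negative under them, and counts above and below 0 are those of the main setting. The counts over all genes move as well. At least 2-fold lower were 2178 of 22179 genes with spike-in centring and 1423 of 22346 without scaling. With normexp background correction 321 of 22131 genes were. The 2-fold counts of the lists in these settings stand beside those values.

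**Figure D5:**
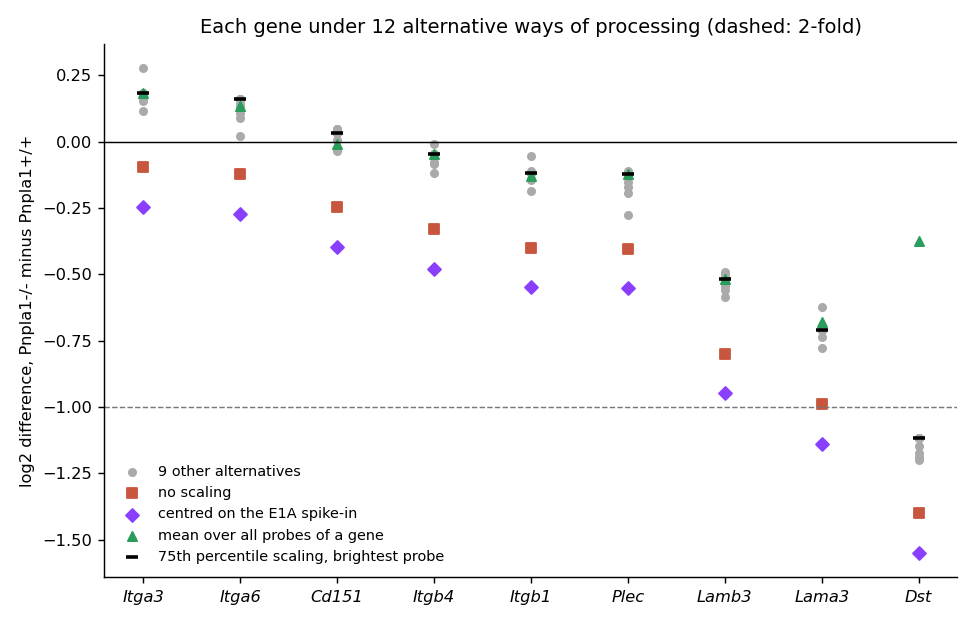
Difference of each of the 9 genes in the main setting (black bar) and under 12 alternatives, of which no scaling (red), centring on the spike-in RNA (violet) and the mean over the probes of each gene (green) are marked. No scaling and spike-in centring lower all 9 genes together, taking *Itga3*, *Itga6* and *Cd151* below 0, and the mean over probes moves *Dst* from -1.12 to -0.37.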

How the data were processed

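Gene expression was measured in newborn skin, 1 array per genotype. The authors scanned the arrays with an Agilent SureScan scanner. They analysed the data with Agilent Feature Extraction, version 11.5.1.1 in the submitters' processing notes. They deposited files that hold, per spot, the background-subtracted intensity on a linear scale with its error and flags. They also deposited a table of each intensity as a ratio to 1 factor per array (2109 and 1734), equal to the 75th percentile or next to it. The study states a global normalization without naming the statistic. Coordinates are those of the scanner files (mm9), and no mm9 genome was used here, so exon or UTR positions are not given.

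From the intensities, log2(intensity / 75th percentile of the array) was computed in Python 3.11.15 (numpy 2.4.6, pandas 2.3.3). Spots flagged as outliers on either array were left out (138 for wild-type, 82 for *Pnpla1*-/-), repeated spots were averaged, and a gene was read from its brightest probe. Of 30133 genes, 20683 were well above background on both arrays. For 1700 genes above background on 1 array a bound was set, taking for the dim array whichever was higher of the probe's reading there and the faintest reading of any probe well above background, and 7750 had no difference. Of the 39420 probes left, 31449 matched a table of mouse genes (GRCm38.p6, used for names only) and 7971 did not, and go by their deposited name. The 12 alternatives were scaling by the median, by nothing, by the percentile among probes detected on both arrays, by quantile normalization, by cyclic loess or by 8 E1A spike-in probes, normexp background correction (offset 50), the deposited ratios, a mean over probes, a looser and a stricter filter on dim probes, and flagged spots kept (limma 3.58.1 in R 4.3.3 where needed).

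With 1 array per genotype no test was run, and precision is limited by the number of arrays. The computation was tested on simulated data. The 9 members, the 19 other gene lists and the settings were chosen with earlier results of these data known. Named are all members with every probe, *Pnpla1*, the 5 partners, in every other list the 2 highest and 2 lowest genes measured on both arrays and the genes with a bound, and in marker lists the brightest gene. One gene of the rule is not reported here. Genes outside this rule are *Trp63*, *Sfn*, *Fras1*, *Frem1*, *Frem2*, *Lamc3*, *Lama2* and *Lama5*, and *Cd207* and *Itgae*, which had no difference. The brightest probe is that of the highest mean log2 over both arrays. *Krt5* and *Krt14* are in 2 lists, as is *Itgam*. No genes of like pattern are named, since with 2 arrays a pattern is 1 difference. Both arrays were on 1 slide and in 1 scan.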

Additional observations from a re-analysis of the deposited data

How the results depend on the processing

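The median over the 9 genes was -0.12, and moved by more than the technical SD in 2 of 12 alternatives, to -0.40 without scaling and -0.55 with spike-in centring. Under these the median of all genes moved by -0.28 and -0.44, and the percentage of genes 2-fold apart that were higher in *Pnpla1*-/- skin went from 68.7% to 41.2% and 27.5%. That percentage was 62.6% with median scaling and 58.8% with quantile normalization. The count of members at least 2-fold lower was 1, but 2 with spike-in centring, which added *Lama3*, and 0 with a mean over the probes of each gene, where *Dst* was at -0.37. Of all genes, 681 of 22383 were lower by as much in the main setting. These were 2178 of 22179 with spike-in centring and 658 of 22383 with the mean over probes. The count at least 1.5-fold lower was 2, 1 with the mean over probes, and 3 with median scaling, without scaling and with spike-in centring, which added *Lamb3*. Of all genes, 9.34% were lower by as much in the main setting and 9.02% with the mean over probes. That share was 11.2% with median scaling, 21.5% without scaling and 34.2% with spike-in centring. The mean over probes joins probes of different *Dst* transcripts. No member was 1.5-fold higher in any of the settings. With no filter on dim probes the median of all genes moved by 0.10. The slide could not be used as a block, since both arrays were on 1 slide. No paired analysis was possible because each genotype has 1 array. Dim probes have the largest error, as for *Frem3*, at 26.1 in *Pnpla1*-/- skin with a software SD of 0.33.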

Other observations

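Other families around these genes were also described by counts and medians only. Of 5 other plakins, relatives of *Dst* and *Plec*, none was 2-fold apart, and the median was 0.17, negative without scaling and with spike-in centring. *Dsp*, the plakin of desmosomes, was highest at 0.52, with intensities of 54234 in wild-type and 63816 in *Pnpla1*-/- skin, followed by *Evpl* at 0.30. *Eppk1*, epiplakin, was lowest at -0.57, with 27984 and 15529, followed by *Ppl* at -0.03. Of 13 other tetraspanins, relatives of *Cd151*, 8 were above 0 and 1 at least 2-fold higher, and the median was 0.27, negative without scaling and with spike-in centring. *Tspan8* had intensities of 137 and 477, a difference of 2.08, and *Cd37*, a tetraspanin of leukocytes, was at 0.83, with its other probe at 1.01. *Tspan6* at -0.39 and *Cd82* at -0.30 were lowest, and *Tspan1* was well above background in *Pnpla1*-/- skin only, at least 1.29-fold higher, or 1.01-fold with quantile normalization, with a software SD of 0.53 beside its log2 bound of 0.36. Of 7 other receptors for basement membrane or matrix, *Sdc1*, a heparan sulfate proteoglycan that binds laminin-332, was highest, with 5444 and 9199 and a difference of 1.04, followed by *Ddr1* at 0.41. *Bcam*, a receptor of the *Lama5* chain, was lowest at -0.46, followed by *Ddr2* at -0.29, and the median was 0.16, negative under the same 2 settings.

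Of 12 genes for enzymes that cleave laminin-332 or the *Col17a1* product or activate those that do, 7 were above 0 and 5 below, with a median of 0.34 that was negative with spike-in centring. *Mmp9* was well above background in *Pnpla1*-/- skin only, with a signal at least 5.74-fold higher there, and *Plg* likewise with at least 1.64-fold. These bounds were as low as 2.44-fold for *Mmp9* with normexp background correction and 1.21-fold for *Plg* with spike-in centring, and the software SD of *Plg* was 0.90 beside its log2 bound of 0.71. *Plau*, urokinase, at 0.99 and *Adam17* at 0.75 were the highest measured on both arrays, and *Tll1* at -0.34 and *Bmp1*, which trims laminin-332 chains, at -0.33 were lowest. Of 6 integrin subunits of leukocytes and platelets, 5 were measured and 3 were at least 2-fold higher, with a median of 1.80. *Itgax* had intensities of 89.3 and 517, a difference of 2.82, and *Itgal* had 259 and 1059, a difference of 2.31, with its other probes at 0.99 and 1.61. *Itga2b* at 0.35 and *Itgam* at -0.03 were lowest, and *Itgae* did not reach well above background on any array. *Itgam* had 11846 and 9569 with its brightest probe, while its other probes were at 1.14 and 2.84, and the mean over its probes was 1.32.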
